A study of Mus musculus with 4 samples.

Results

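The 48 genes described here encode the machinery of cell division: mitotic cyclins and kinases, the spindle checkpoint, the kinetochore, condensin, and the proteins of the spindle and of cytokinesis. They were chosen by symbol for these roles, out of the 24084 gene rows of the count table, and all 48 were found and tested. Kinesins were left to one side, except that Cenpe is itself a kinesin-type motor. RNA was sequenced from sorted hair follicle stem cells of the skin epidermis of C57BL/6 mice aged 7 to 10 weeks, taken 4 days after depilation, which starts new hair growth. There were 2 libraries per group, C and D from Foxp3-DTR mice and A and C from WT mice, and pairs of values follow that order. All mice of both groups were given diphtheria toxin at 15 ng/g into the peritoneum. In Foxp3-DTR mice the toxin receptor is made by cells that express Foxp3, so the toxin removes regulatory T cells, and the labels give these cells as depleted in Foxp3-DTR and present in WT. The labels do not say how many animals went into a library. The comparison asks how the expression of the stem cells differs when regulatory T cells are missing.

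Most of these genes are transcribed in a burst late in the cell cycle. In resting cells the DREAM complex, built on the MuvB proteins, keeps them silent, and in cycling cells MuvB joins B-Myb and then Foxm1 to switch them on. Their transcripts are therefore widely used as a gauge of dividing cells. Bulge stem cells rest through most of the hair cycle and divide when a new growth phase begins.

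Gene counts per library ran from 13911765 to 15923154. Levels are given as CPM, which scales a gene's count by its TMM-adjusted library size, and fold changes as log2 of Foxp3-DTR over WT from edgeR, with the standard error (SE). The 10 bulge markers were all detected, and summed to 33138 and 35089 CPM in Foxp3-DTR, against 18420 and 25813 CPM in WT. Postn alone gave 21280 and 20188 CPM of these sums in Foxp3-DTR, and 4653 and 9569 CPM in WT. Of these 10, 4 had a positive and 6 a negative fold change, and 0 passed edgeR's test, against 1.25% of all genes in either direction. At an unadjusted p under 0.05, 4 were higher and 1 lower, where 7.89% of all genes were lower. The share of all genes higher at that limit was not counted. Cd34 had 1709 and 1625 CPM in Foxp3-DTR, against 936 and 1216 CPM in WT, while Sox9 lay between 550.1 and 670 CPM in all 4 libraries. Lhx2 was lower, with 425 and 439 CPM in Foxp3-DTR, against 789 and 804 CPM in WT. The groups differed in sex-linked genes. Xist had 1.86 CPM in Foxp3-DTR C and 0 counts in Foxp3-DTR D, against 861 and 2482 CPM in WT. The sample titles also carry a different code in each group. Genotype, sex and whatever the code marks therefore cannot be told apart. Of the 48 genes, 0 lie on the X or Y chromosome. The libraries of a group also differed in epidermal differentiation: the 8 markers of that list summed to 1224 and 7108 CPM in Foxp3-DTR, and to 8396 and 997 CPM in WT.

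Mitotic transcripts stood far lower in Foxp3-DTR than in WT stem cells, in nearly every member and in both libraries. Summed over the 48 genes they made up 678 and 1209 CPM in Foxp3-DTR, against 4290.1 and 2610.04 CPM in WT. The median log2 fold change of the 48 was -2.19, against -0.01 over all 12920 genes tested. Of the 48, 47 had a negative fold change, 43 lay below -1 and 35 below -2, against 51.4%, 7.47% and 2.44% of all genes tested. In 46 members both Foxp3-DTR libraries lay below both WT libraries, which was so for 23.7% of all genes tested. Fewer dividing cells and less mitotic RNA per cell cannot be told apart in such bulk libraries.

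The test over all genes was much more sparing than the fold changes. With edgeR's quasi-likelihood test and Benjamini-Hochberg adjustment over all genes, 1 of 48 members fell and 0 rose, against 0.426% of all genes called lower and 0.820% called higher. The member that fell was Aurka. A further 23 members had an adjusted p between 0.05 and 0.1, which makes 24 under 0.1, against 2.31% of all genes lower at that limit. With no adjustment, 46 had p under 0.05, all of them lower in Foxp3-DTR, against 7.89% of all genes. DESeq2 called 42 members lower, against 3.79% of all genes, and edgeR without a filter on low counts called 15, against 1.61%. With limma-voom 0 members passed, against 0.178% of all genes. Single libraries moved the count: it was 0 without Foxp3-DTR C, 37 without Foxp3-DTR D, 0 without WT A and 12 without WT C, against 0.105%, 1.64%, 0.316% and 1.20% of all genes. The members' median log2 fold change was -1.65, -2.86, -1.73 and -2.49 in these 4 fits, with 47 members negative in each.

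The 4 libraries kept 1 order almost throughout. In 45 of the 48 genes the level was lowest in Foxp3-DTR C, then Foxp3-DTR D, then WT C, and highest in WT A, an order held by 10.7% of all genes tested. Within the groups the members also moved together: 45 were higher in Foxp3-DTR D than in Foxp3-DTR C, with a median difference of 1.06 on the log2 scale, and 47 were higher in WT A than in WT C, with a median of 0.78. Among all genes tested 49.8% and 49.5% were higher in the same direction. In each group the library with more mitotic RNA was also the library with more RNA of epidermal differentiation genes, and the part of that in these differences was not tested. Across the groups that order broke, since the differentiation list had 7108 CPM in Foxp3-DTR D and 997 CPM in WT C.

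**Figure D1:**
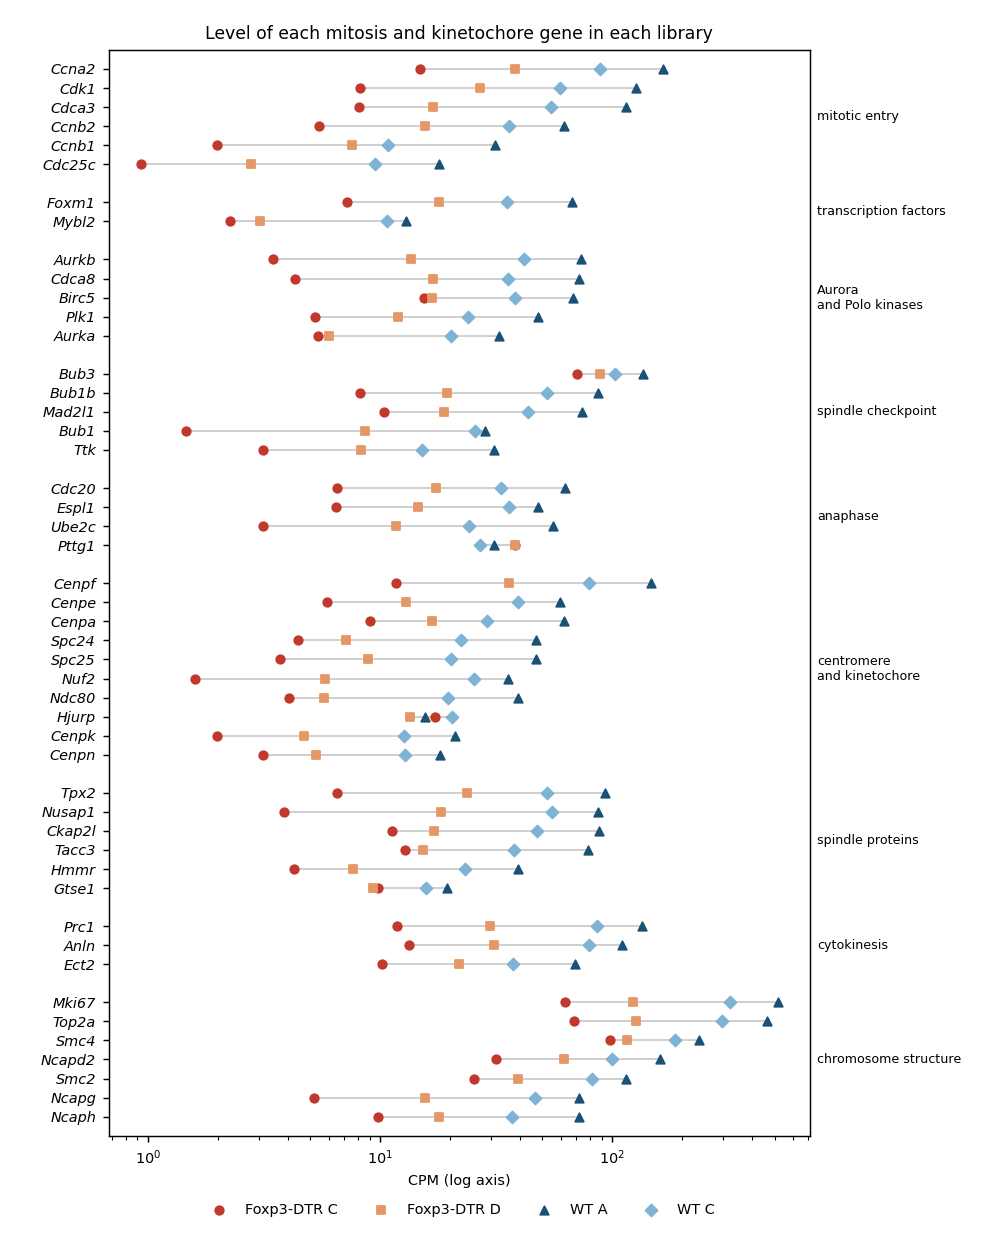
Each row is a mitosis or kinetochore gene, arranged by role, and each point is its level in 1 library, in CPM on a log axis (Foxp3-DTR C and D, WT A and C). The points keep the order Foxp3-DTR C, Foxp3-DTR D, WT C, WT A from left to right in 45 of 48 rows, and Pttg1, Hjurp and Gtse1 are the exceptions.

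Many promoters of the members held motifs that the choice of genes did not use. These motifs are known from late cell cycle genes, so their shares are a description and not a separate finding. The cell cycle homology region (CHR), TTTGAA, is the DNA element through which MuvB complexes reach late cell cycle genes, and the CCAAT box is bound by NF-Y. In the RefSeq promoter windows (GRCm38.p6, 250 bases before to 50 after the start of transcription), 41 members had 47 windows. TTTGAA on either strand was found in 66% of these windows, against 11.6% of the 12403 windows of genes tested here and 17.9% of all 32851 windows. Within 60 bases before the start and the 50 after it, the shares were 59.6% of members' windows and 3.33% of those of tested genes. CCAAT on either strand occurred in 78.7% of members' windows and 37.6% of those of tested genes, and at least 2 copies in 51.1% and 13.8%. The CHR variant TTTAAA occurred in 21.3% of members' windows and 8.96% of those of tested genes. Of the forms bound by E2F factors, the shorter (TTCCCGC) occurred in 6.38% of members' windows and 8.30% of those of tested genes, and the longer (TTTGGCGC) in 2.13% and 0.968%. Of 139 matches in the members' windows, 2 pairs shared bases, and 5 members had at least 2 windows. A match here is a run of letters and not a shown binding site.

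Promoter windows are printed for the member that passed the test (Aurka), for a pair of textbook late cell cycle promoters (Cdk1 and Top2a), and for the pair that did not follow the rest (Pttg1 and Hjurp). Each runs 5′ to 3′ along the gene's own strand, which is the minus strand in all 5, and capitals mark matches to any of these motifs on either strand. On the opposite strand CCAAT is seen as ATTGG, and the CHR is seen as TTCAAA. The windows are chr2:172370521-172370820 for Aurka, chr10:69352863-69353162 for Cdk1, chr11:99024140-99024439 for Top2a, chr11:43425932-43426231 for Pttg1 and chr1:88277530-88277829 for Hjurp.
Aurka: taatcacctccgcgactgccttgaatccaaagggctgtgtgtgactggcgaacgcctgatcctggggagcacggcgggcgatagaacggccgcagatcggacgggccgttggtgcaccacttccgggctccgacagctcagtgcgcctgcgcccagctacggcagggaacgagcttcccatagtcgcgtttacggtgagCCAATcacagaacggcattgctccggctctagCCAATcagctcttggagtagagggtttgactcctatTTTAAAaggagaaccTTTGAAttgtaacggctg
Cdk1: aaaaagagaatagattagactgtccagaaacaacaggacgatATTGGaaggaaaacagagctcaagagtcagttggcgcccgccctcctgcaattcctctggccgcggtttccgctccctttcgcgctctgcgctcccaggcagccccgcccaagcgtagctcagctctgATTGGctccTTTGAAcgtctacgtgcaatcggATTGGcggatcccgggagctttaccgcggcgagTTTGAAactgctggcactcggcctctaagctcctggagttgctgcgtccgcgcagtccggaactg
Top2a: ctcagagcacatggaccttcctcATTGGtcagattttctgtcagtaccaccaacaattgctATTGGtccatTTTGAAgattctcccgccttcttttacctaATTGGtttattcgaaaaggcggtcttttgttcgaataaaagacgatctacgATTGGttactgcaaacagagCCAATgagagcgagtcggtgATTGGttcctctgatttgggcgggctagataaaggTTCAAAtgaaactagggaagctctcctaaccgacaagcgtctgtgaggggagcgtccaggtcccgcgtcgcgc
Pttg1: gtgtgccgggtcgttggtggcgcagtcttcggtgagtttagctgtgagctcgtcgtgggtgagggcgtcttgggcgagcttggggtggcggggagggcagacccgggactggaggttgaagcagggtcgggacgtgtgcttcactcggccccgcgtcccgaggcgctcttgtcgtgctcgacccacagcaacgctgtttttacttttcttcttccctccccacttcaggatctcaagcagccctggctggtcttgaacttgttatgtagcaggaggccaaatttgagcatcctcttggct
Hjurp: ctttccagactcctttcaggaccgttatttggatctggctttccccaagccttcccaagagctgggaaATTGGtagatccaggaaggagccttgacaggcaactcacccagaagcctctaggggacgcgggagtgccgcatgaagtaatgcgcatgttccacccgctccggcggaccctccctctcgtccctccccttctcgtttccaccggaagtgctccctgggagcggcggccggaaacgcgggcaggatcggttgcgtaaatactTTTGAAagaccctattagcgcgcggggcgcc

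Positions are given for the first base of a match, counted from the annotated start, with minus signs upstream. Aurka had TTTGAA at 33 and CCAAT at -51 and -19. Cdk1 had TTTGAA at -15 and -71, with CCAAT at -48, -80 and -208. Top2a had TTTGAA at -23 and -179, and 6 CCAAT boxes, all upstream. Hjurp also had TTTGAA, at 20, with CCAAT at -182. Pttg1 had no match in this window, whose start lies 270 bases inside the GENCODE gene, so the window may not hold the promoter in use. Nuf2, with the most negative fold change, had no match either, and Bub3, with one of the smallest, had TTTGAA. In all, 8 members had neither TTTGAA nor CCAAT in any window, namely Mybl2, Birc5, Mad2l1, Pttg1, Nuf2, Nusap1, Tacc3 and Ncaph.

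**Figure D2:**
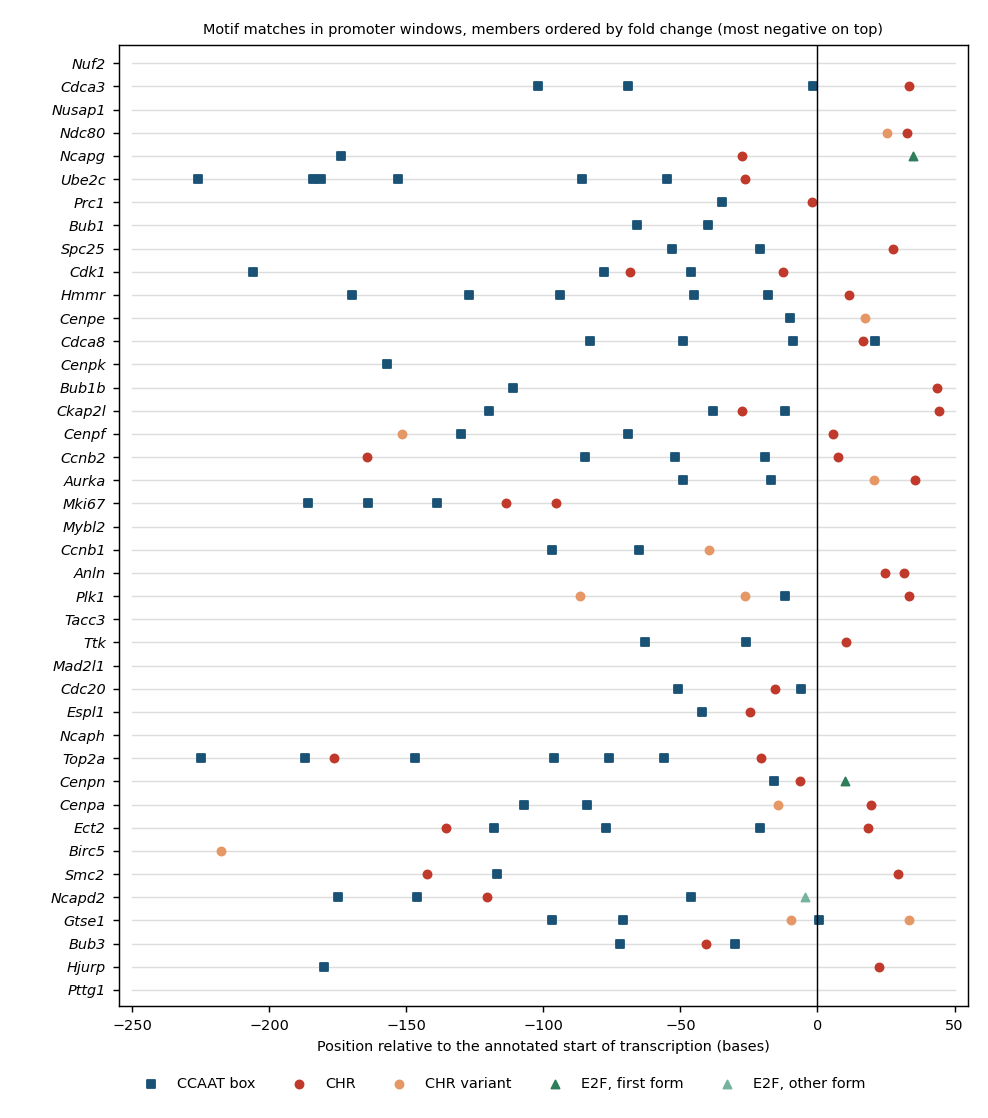
Each row is the promoter window of a member, with the most negative fold change on top, and each mark is a motif match placed by its distance in bases from the annotated start of transcription (line at 0). TTTGAA matches (red) lie within 60 bases before the start or after it in 26 members, and the windows of Nuf2 at the top and Pttg1 at the bottom hold no mark.

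Mitotic entry is driven by Cdk1 with its cyclin partners. All 6 genes of this group had log2 fold changes between -2.89 and -2.13, and none passed (edgeR adjusted p from 0.0777 to 0.306). Ccna2, the cyclin that acts from S phase into early mitosis, had 14.9 and 38.0 CPM in Foxp3-DTR, against 165 and 88.6 CPM in WT. Ccnb2, a B-type cyclin, had 5.44 and 15.6 CPM in Foxp3-DTR, against 62.1 and 35.7 CPM in WT. Both cyclins were lower in each Foxp3-DTR library than in either WT library, as were 23.7% of all genes tested. Cdca3, which in frog extracts promotes entry by helping to degrade the Cdk1 inhibitor Wee1, had 8.09 and 16.9 CPM in Foxp3-DTR, against 114 and 54.5 CPM in WT (log2 fold change -2.76 ± 0.51). Cdc25c, a phosphatase that activates Cdk1, had 0.928 and 2.76 CPM in Foxp3-DTR, against 17.9 and 9.53 CPM in WT (-2.89 ± 0.66). The lowest of these values rests on 14 counts, the smallest count of any member. Cdk1 averaged 17.5 ± 13.2 CPM in Foxp3-DTR and 92.7 ± 47.1 CPM in WT (SD, n = 2 each). Ccnb1, the main mitotic cyclin, had a log2 fold change of -2.13 ± 0.80, but 51.9% of its transcript lies in near-identical pseudogene copies, so its count is uncertain.

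Of the transcription factors that turn this programme on, 0 of 2 passed edgeR's test, against 0.426% of all genes called lower. Both had negative fold changes, as did 51.4% of all genes tested. Foxm1 had 7.16 and 17.9 CPM in Foxp3-DTR, against 67.2 and 35.1 CPM in WT (log2 fold change -2.03 ± 0.54, adjusted p = 0.152). Mybl2, which encodes B-Myb, had 2.25 and 3.05 CPM in Foxp3-DTR, against 12.95 and 10.7 CPM in WT (-2.15 ± 0.44, edgeR adjusted p = 0.0771). Its groups lay well apart and its replicates close together, though 28.3% of its transcript matches pseudogenes. The 5 core MuvB genes, which are made in resting and dividing cells alike, had a median log2 fold change of -0.04. Their values ran from -0.45 (Lin9) to 0.39 (Lin52), with 3 negative and 2 positive. Of these 5, 0 passed edgeR's test, against 0.426% of all genes called lower and 0.820% called higher. At an unadjusted p under 0.05, 0 were lower, against 7.89% of all genes, and 0 were higher.

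Aurora and Polo kinases drive spindle building and chromosome attachment. Aurka, the centrosome and spindle kinase (chromosome 2, 172356190 to 172370535 in mm10), had 5.37 and 6.02 CPM in Foxp3-DTR, against 32.4 and 20.2 CPM in WT. The groups lay apart by more than either pair of replicates, and Aurka fell by 2.21 ± 0.35 on the log2 scale (edgeR adjusted p = 0.0468). Over the alternatives its adjusted p ran from 1.43e-05 with DESeq2 to 0.121 without Foxp3-DTR C, and it also missed the threshold without WT A (0.111) and with limma-voom (0.0842). Aurkb, the kinase of the chromosomal passenger complex, had 3.45 and 13.5 CPM in Foxp3-DTR, against 73.0 and 41.5 CPM in WT. The log2 fold change of Aurkb was larger, at -2.75 ± 0.71, but so was the gap between its Foxp3-DTR libraries (3.93-fold, against 1.12-fold for Aurka), and its adjusted p was 0.169. Cdca8 and Birc5, which encode the passenger subunits borealin and survivin, had log2 fold changes of -2.35 ± 0.75 and -1.71 ± 0.32. Plk1, the Polo kinase, had -2.07 ± 0.52.

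**Figure D3:**
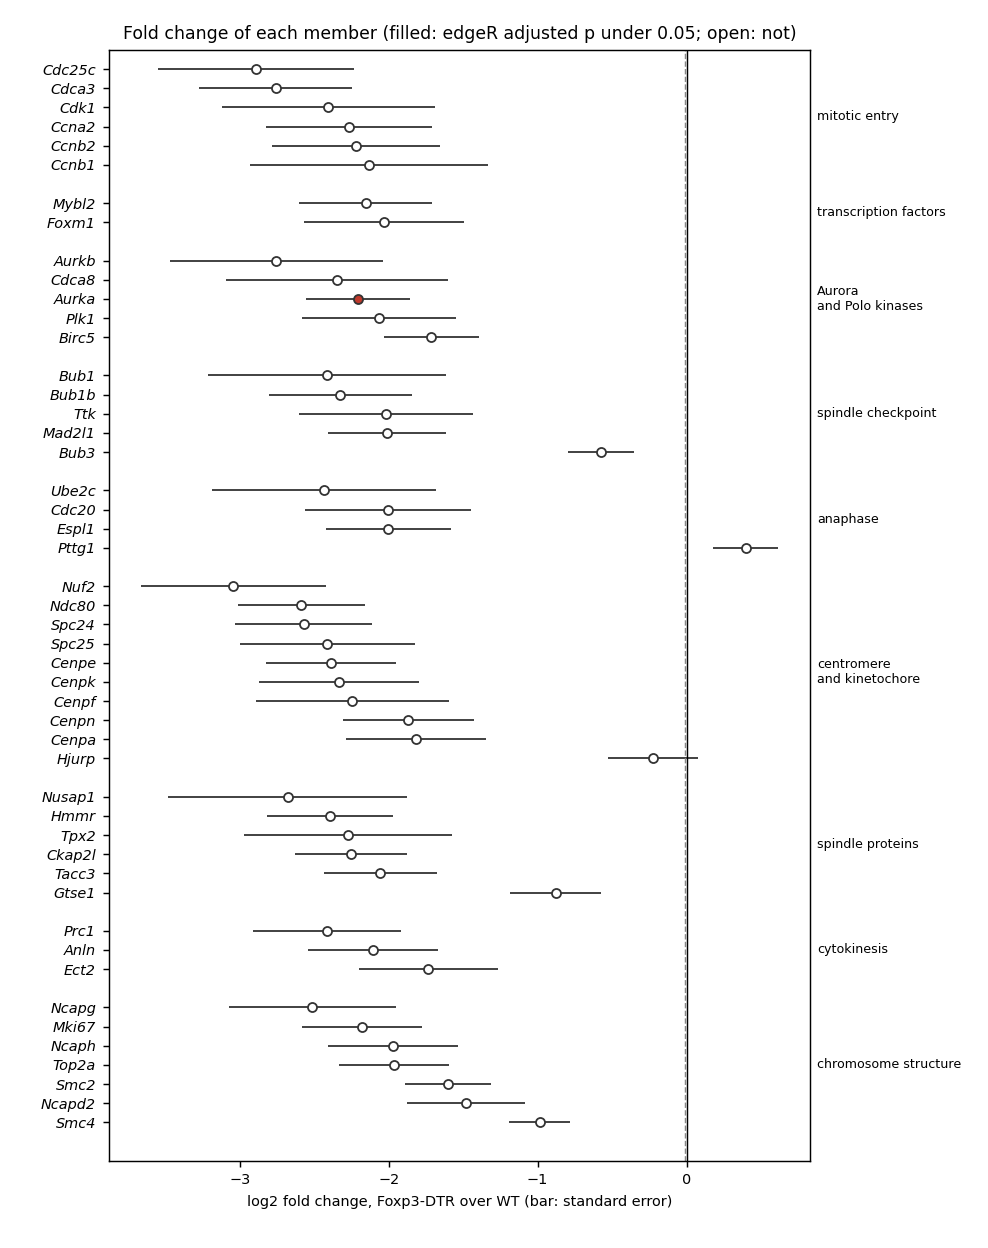
Points give each member's log2 fold change of Foxp3-DTR over WT with its SE, by role and sorted within each role, and the dashed line is the median of all genes tested (-0.01). Aurka (filled) is the only member with an edgeR adjusted p under 0.05. Most others lie between -3.04 and -1.48 with wide bars, and Smc4, Gtse1, Bub3, Hjurp and Pttg1 lie to the right of -1.

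Of the 5 spindle checkpoint genes, 0 passed edgeR's test, against 0.426% of all genes called lower. All 5 were lower at an unadjusted p under 0.05, against 7.89% of all genes. Bub3 had a smaller fold change than the other 4. Mad2l1, which carries the wait signal from unattached kinetochores, had 10.3 and 18.8 CPM in Foxp3-DTR, against 74.3 and 43.2 CPM in WT (log2 fold change -2.01 ± 0.40, edgeR adjusted p = 0.0752). Bub1, Bub1b and the kinase Ttk were similar, at -2.41 ± 0.80, -2.32 ± 0.48 and -2.02 ± 0.58. Bub3, which tethers Bub1 and Bub1b to kinetochores, had 70.8 and 88.7 CPM in Foxp3-DTR, against 135 and 102 CPM in WT. Its groups did not overlap, but its log2 fold change was only -0.57 ± 0.22 (adjusted p = 0.293). Bub3 thus stood at 67.1% of its WT level, while Bub1 and Bub1b stood at 18.8% and 19.98%, and the difference between these genes was not tested.

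Genes of the exit from mitosis held the plainest exception. Cdc20, the activator of the anaphase-promoting complex (APC/C), had a log2 fold change of -2.003 ± 0.56, and Ube2c, the ubiquitin-conjugating enzyme that serves it, had -2.43 ± 0.75. Espl1, the protease separase that cuts cohesin, had 6.43 and 14.5 CPM in Foxp3-DTR, against 47.9 and 36.04 CPM in WT (-2.002 ± 0.42, adjusted p = 0.0823). Pttg1, the securin that holds separase inactive (chromosome 11, 43420250 to 43426251), had 38.2 and 37.9 CPM in Foxp3-DTR, against 31.0 and 26.8 CPM in WT. It was the only member higher in both Foxp3-DTR libraries than in both WT libraries, by 0.40 ± 0.22 on the log2 scale, and it did not pass (edgeR adjusted p = 0.491). The sign of this difference stayed positive in all 8 alternative fits. These fits reuse the same libraries, and groups that do not overlap leave little room for another sign. Separase and its inhibitor thus stood at 24.98% and 132% of their WT levels, and the difference between these genes was not tested.

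Of the 10 centromere and kinetochore genes, 0 passed edgeR's test, against 0.426% of all genes called lower. At an unadjusted p under 0.05, 9 were lower, against 7.89% of all genes. The outer Ndc80 complex, which grips microtubules, has 4 subunits, and these had log2 fold changes of -3.04 ± 0.62 (Nuf2), -2.59 ± 0.43 (Ndc80), -2.57 ± 0.46 (Spc24) and -2.41 ± 0.59 (Spc25). Nuf2 had 1.59 and 5.81 CPM in Foxp3-DTR, against 35.6 and 25.4 CPM in WT, the largest difference among the 48. Ndc80 had 4.05 and 5.74 CPM in Foxp3-DTR, against 39.1 and 19.7 CPM in WT, and came nearest to passing after Aurka (adjusted p = 0.0507). All 4 subunits were lower in each Foxp3-DTR library than in either WT library, as were 23.7% of all genes tested. Of the Ndc80 transcript, 22.9% has near-identical copies elsewhere. At the inner kinetochore Cenpk and Cenpn had -2.33 ± 0.54 and -1.87 ± 0.44. Outside it, the motor Cenpe had -2.39 ± 0.44 and the large coiled-coil protein Cenpf -2.24 ± 0.65.

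Centromere identity rests on the histone variant Cenpa and on Hjurp, the chaperone that loads it. Cenpa had 9.09 and 16.7 CPM in Foxp3-DTR, against 62.0 and 28.8 CPM in WT (log2 fold change -1.82 ± 0.47). Hjurp (chromosome 1, 88262471 to 88277633) had 17.2 and 13.5 CPM in Foxp3-DTR, against 15.6 and 20.4 CPM in WT. Hjurp was the only member whose groups overlapped, with a log2 fold change of -0.23 ± 0.30 (adjusted p = 0.816), and its libraries did not follow the order of the rest in either group.

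Spindle and cytokinesis proteins followed the common pattern, apart from Gtse1. Ckap2l, a spindle pole and midbody protein, had 11.3 and 17.1 CPM in Foxp3-DTR, against 88.1 and 47.3 CPM in WT (log2 fold change -2.26 ± 0.38, edgeR adjusted p = 0.0525). Tpx2, which activates Aurka on the spindle, had -2.27 ± 0.70. The microtubule-binding proteins Nusap1, Hmmr and Tacc3 had -2.68 ± 0.80, -2.39 ± 0.42 and -2.06 ± 0.38. Gtse1, a microtubule-bound regulator of p53, stood at 9.81 and 9.28 CPM in Foxp3-DTR, against 19.4 and 15.8 CPM in WT (-0.88 ± 0.31). Its groups did not overlap, at 54.3% of the WT level. Anln, the scaffold of the contractile ring, had 13.3 and 31.0 CPM in Foxp3-DTR, against 110.4 and 79.6 CPM in WT (-2.10 ± 0.43, adjusted p = 0.0901). Prc1, which bundles the central spindle, and Ect2, which activates RhoA there, had -2.41 ± 0.50 and -1.73 ± 0.46.

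Chromosome structure genes included the most abundant members. Per kilobase of exon, Top2a, Mki67, Smc4, Ccnb2 and Ccna2 were highest in WT, at 42.3 ± 13.0, 41.8 ± 13.8, 40.6 ± 6.65, 31.9 ± 12.2 and 31.1 ± 13.3 CPM per kilobase (SD, n = 2), and the first 3 did not differ beyond their spread. In Foxp3-DTR Smc4 (20.5 CPM per kilobase) and Pttg1 (19.03) ranked first and next, while Top2a and Mki67 stood at 10.8 and 9.23. Top2a, which untangles sister DNA, had 68.3 and 127 CPM in Foxp3-DTR, against 464 and 298 CPM in WT (log2 fold change -1.96 ± 0.37). Mki67, the coat of mitotic chromosomes known as the Ki-67 marker, had 62.8 and 123 CPM in Foxp3-DTR, against 519 and 323 CPM in WT (-2.18 ± 0.40). Both were lower in each Foxp3-DTR library than in either WT library, as were 23.7% of all genes tested. Their edgeR adjusted p was 0.0722 and 0.0741.

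Condensin folds chromosomes for division, and no test between its subunits was made. Ncapg and Ncaph, which occur only in condensin I, had log2 fold changes of -2.51 ± 0.56 and -1.97 ± 0.44, and their complex partner Ncapd2 -1.48 ± 0.39. Smc2 and Smc4 are the core subunits of both condensins. Smc2 had 25.3 and 39.3 CPM in Foxp3-DTR, against 114 and 81.6 CPM in WT (-1.60 ± 0.29, edgeR adjusted p = 0.0577). Smc4 had 98.2 and 115 CPM in Foxp3-DTR, against 236 and 187 CPM in WT (-0.99 ± 0.20, adjusted p = 0.0769). The 3 subunits of condensin II, which are not among the 48, had values of -0.84 ± 0.18 (Ncapg2), -0.82 ± 0.19 (Ncapd3) and -0.22 ± 0.20 (Ncaph2), and none passed.

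By role, median log2 fold changes lay close together, from -2.36 for centromere and kinetochore genes and -2.34 for mitotic entry to -1.96 for chromosome structure. No test between these groups of genes was made, and their ranges overlapped. The 5 members above -1 came from 5 different roles, namely Pttg1, Hjurp, Bub3, Gtse1 and Smc4. In Foxp3-DTR D these were 0.781 (Hjurp), 0.946 (Gtse1), 0.992 (Pttg1), 1.17 (Smc4) and 1.25 (Bub3) times as high as in Foxp3-DTR C. Some members with much lower fold changes had ratios in the same range, such as Birc5 (1.07), Aurka (1.12) and Tacc3 (1.19), while Cdk1 had 3.29.

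A further 105 mitosis genes in the table were listed by role, with earlier results of these data known. Their median log2 fold change was -0.84, and 1 fell and 0 rose in edgeR's test, against 0.426% and 0.820% of all genes. DESeq2 called 41 of them lower, against 3.79% of all genes, and limma-voom 0, against 0.178%. With edgeR's unadjusted p under 0.05, 58 were lower, against 7.89% of all genes. The gene that fell was Cep55, a midbody protein needed for the final cut between daughter cells, with 5.37 and 3.54 CPM in Foxp3-DTR, against 31.9 and 19.9 CPM in WT (-2.53 ± 0.39, adjusted p = 0.0449). Further kinetochore genes had a median of -1.49, further checkpoint and regulator genes -1.64, and further spindle and cytokinesis genes -1.97. Casc5, the kinetochore scaffold Knl1, had -2.69 ± 0.51, the centrosome kinase Nek2 -2.28 ± 0.38, and the kinase Melk -2.94 ± 0.51, and these did not pass. Lists of subunits that are mostly made throughout the cell cycle had medians near 0. The 16 genes of the APC/C and its regulators had a median of -0.16, with its inhibitor Fbxo5 at -0.83 ± 0.29. The 13 cohesin genes had a median of 0.03, with the S phase cohesin factors Esco2 and Cdca5 at -1.88 ± 0.34 and -2.08 ± 0.45 and the core subunit Smc3 at -0.21 ± 0.17. In these last 2 lists 0 genes passed edgeR's test, against 0.426% of all genes called lower. At an unadjusted p under 0.05, 1 of 16 and 2 of 13 were lower, against 7.89% of all genes.

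The 12 mitotic kinesins had a median of -2.14, close to that of the 48, and the 34 replication genes -1.21, with 1 and 4 past edgeR's test, all lower, against 0.426% of all genes called lower. The kinesin that fell was Kif11, the spindle motor Eg5 (-2.30 ± 0.30, adjusted p = 0.0322), and the replication genes that fell included the DNA polymerase subunit Pold1 (-1.54 ± 0.22), the origin firing factor Ticrr (-2.13 ± 0.33) and the helicase subunit Mcm6 (-1.13 ± 0.18). The difference between the lists was not tested.

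**Figure D4:**
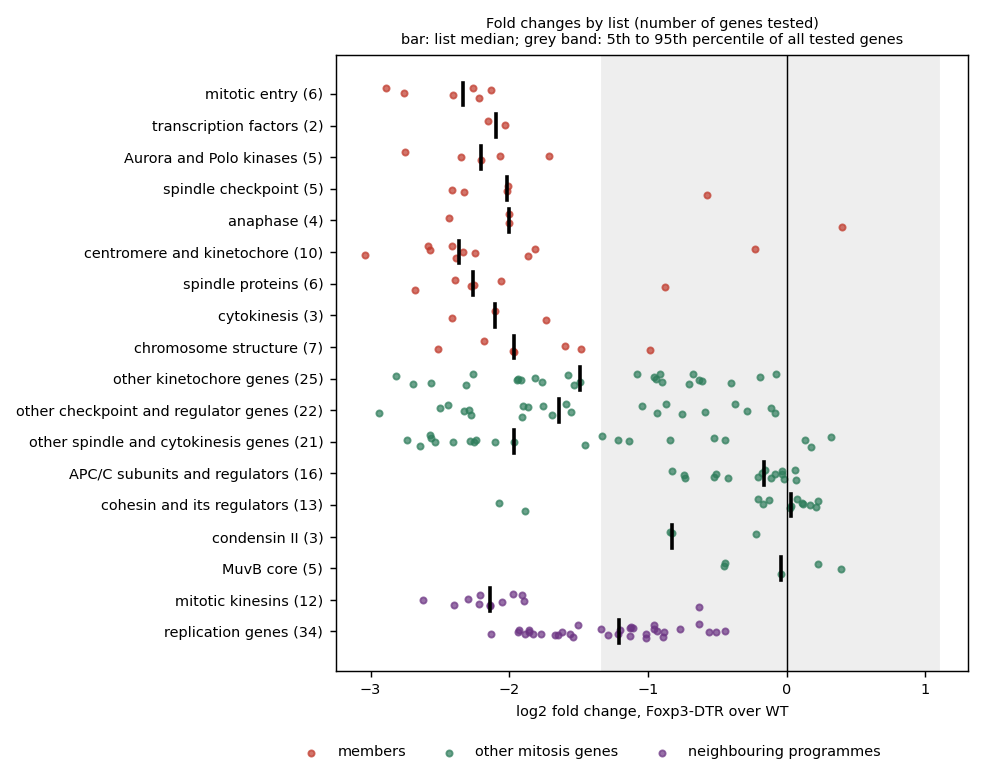
Each point is the log2 fold change of a gene, Foxp3-DTR over WT, in lists of members by role (red), of other mitosis genes (green) and of kinesins and replication genes (purple), with list medians as bars. The grey band holds the middle of all genes tested, from -1.33 to 1.10. APC/C, cohesin and MuvB genes centre near 0, inside the band. Condensin II and replication genes, with medians of -0.82 and -1.21, also centre inside the band. Every list of members has its median between -2.36 and -1.96, outside the band.

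Markers of other cells were counted beside these differences, and their part in them was not tested. Hair germ and matrix genes, which mark the dividing cells below the bulge, summed over 11 genes to 600.3 and 558 CPM in Foxp3-DTR, and to 567 and 755 CPM in WT. These sums join genes that went both ways, with 5 negative and 3 positive fold changes among the 8 tested. Lef1 had 12.2 and 19.8 CPM in Foxp3-DTR, against 4.86 and 6.64 CPM in WT. Gli1 had 139 and 155 CPM in Foxp3-DTR, against 247 and 369 CPM in WT. Shh, a defining matrix gene, had at most 0.141 CPM in any library. Sebaceous gland markers summed over 7 genes to 192 and 349 CPM in Foxp3-DTR, against 1809 and 239 CPM in WT. Fibroblast markers summed over 7 genes to 27.9 and 31.8 CPM in Foxp3-DTR, against 40.0 and 53.4 CPM in WT, with Lum and Dpt at 0 counts. T cell markers summed over 7 genes to 1.06 and 0.354 CPM in Foxp3-DTR, against 6.83 and 0.369 CPM in WT. Foxp3 and Cd4 had 0 counts in all libraries. Macrophage and Langerhans cell markers reached at most 23.9 CPM over 8 genes, melanocyte markers 140.1 CPM over 6, and endothelial markers 4.74 CPM over 5, with Cdh5, Kdr and Emcn at 0 counts.

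The members lie on 15 chromosomes. On chromosome 2 there were 10, or 20.8% of them, where 7.72% of all tested genes matched by symbol lie. Exons of 10 members share bases with another counted gene, in 9 of them on the opposite strand, such as Ube2c with Tnnc2 and Prc1 with Rccd1. The strand setting of the counter is not given in the sources used here, so reads of such pairs cannot be told apart with certainty.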

How the data were processed

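Sorted hair follicle stem cells gave 4 libraries, 2 Foxp3-DTR and 2 WT, grouped by the genotype label. The authors deposited counts, whole reads per gene symbol and not normalized. Per the labels' protocols, the kit was a stranded poly(A) kit. The build was mm10 and reads were handled with HTSeq 0.6.1, SAMtools 0.1.19.0, TopHat2 2.0.12, Bowtie2 2.1.0.0 and CASAVA 1.8.2, per the submitters' processing notes, which give no order. Neither the annotation nor the strand setting is given in the sources used here.

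The 5 rows that name no gene took 62.0% to 70.1% of the counts in a library and were left out. In R 4.3.3, edgeR 4.0.16 was run on the whole table with TMM, filterByExpr (in effect 0.67 CPM in 2 libraries, a level all 48 members exceeded in all 4), robust glmQLFit and glmQLFTest, with Benjamini-Hochberg adjustment over 12920 genes and a threshold of 0.05. SE was derived from the fold change and the F statistic. The steps were tested on simulated data. Alternatives were DESeq2 1.42.0, its size factors in edgeR, no filter, limma-voom (limma 3.58.1) and leaving out each library. A comparison of 2 with 2 libraries leaves 2 residual degrees of freedom. The labels do not tie libraries to animals, and the p-values cover only library-to-library spread, possibly technical.

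Members and lists were chosen with earlier results of these data known. Described in full were members past the threshold, the member with the smallest p of each role, the 3 largest and 3 smallest fold changes, and the 5 highest WT levels per length, with up to 3 genes of the smallest p from each other list. Members not covered by that rule are given more briefly, and Cdk1, Aurkb, Foxm1, Cenpa and Gtse1 were chosen for values after these were seen. Coordinates and exon lengths are from GENCODE M21 (GRCm38, the assembly of mm10), and promoters from RefSeq GRCm38.p6. Near-identical copies were sought with BLAST at 95% identity over at least 100 bases.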

Additional observations from a re-analysis of the deposited data

How the results depend on the processing

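The fold changes of the 48 members kept their sign in all 8 alternatives, while the number called depended on the method. The alternatives reuse the same libraries, and where groups do not overlap there was little room for another sign. DESeq2 called 489 genes higher, 514 lower, 42 members lower and 41 other mitosis genes lower. Without a filter on low counts the numbers were 277, 252, 15 and 21, and with limma-voom 70, 23, 0 and 0. With DESeq2 size factors in edgeR 1 member was called, as with TMM. Leaving out a library gave 66 to 203 genes higher, 14 to 220 lower, 0 to 37 members lower and 0 to 26 other mitosis genes lower. In these fits the lone library of a group is assumed to vary like the other group. No member was called without Foxp3-DTR C or without WT A, the libraries with the least and the most mitotic RNA. The cause of these shifts was not tested. No paired analysis was possible because the groups share only the replicate letter C. The smallest count of any member was 14, for Cdc25c in Foxp3-DTR C.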
